A study of Mus musculus with 14 samples.

Results

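The genes described here are 9 non-hormone genes that mark the alpha, delta and epsilon cells of the pancreatic islet, taken by gene name from the count matrix of newborn mouse islets. They are Irx1, Irx2, Pou3f4, Ttr and Gc, linked to glucagon-producing alpha cells, Hhex and Ghsr, linked to somatostatin-producing delta cells, and Mboat4 and Etv1, linked to ghrelin-producing epsilon cells. All 9 had exactly 1 row among the 54532 rows of the matrix. The C57BL/6JRj pups were at postnatal day 0, and their islets were cultured for 1 day at 11 mM glucose, and the comparison asks whether adjudin changes gene expression in islets that are still immature. The DMSO group received the solvent alone and the Adjudin group received 10 µM adjudin, an indazole compound, and the labels name no other agent and no allele. Each group had 7 libraries. A DMSO and an Adjudin library with the same number carry the same batch label and form a pair. Islets of several pups, taken without regard to sex, went into every sample, so differences between single animals cannot be seen, and the islets were picked by hand, so cells attached to them could be sequenced too.

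In the mouse islet, alpha cells secrete glucagon, which raises blood glucose, delta cells secrete somatostatin, which restrains their neighbours, and epsilon cells, which are more frequent around birth than in the adult, secrete ghrelin. Each type is held in place by its own transcription factors. Irx1 and Irx2 are Iroquois homeobox factors found in alpha cells, Pou3f4 (also called Brn4) is a POU factor that binds the glucagon gene promoter, and Hhex is a homeobox factor that delta cells need in order to differentiate. Ttr encodes transthyretin, the carrier of thyroid hormone and of retinol-binding protein, and Gc encodes the vitamin D binding protein, and the liver makes both in quantity. Ghsr encodes the ghrelin receptor, Mboat4 the acyltransferase that makes ghrelin active, and Etv1 is an ETS transcription factor that neurons also use.

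The start regions of Irx2, Pou3f4 and Gc are shown because these 3 alpha cell genes had higher levels with adjudin in 5 or 6 of 7 pairs, without passing the test, and their start regions differ in base composition. They were chosen after the values were seen. Each runs from 250 bases before the annotated start to 50 bases after it (RefSeq, GRCm38.p6), and 6 of the 9 genes had an entry. Capitals mark the words CCAAT and GTTAAT on either strand. The Irx2 region is chr13:72628570-72628869 (plus strand), the Pou3f4 region chrX:110814129-110814428 (plus strand) and the Gc region chr5:89457849-89458148 (minus strand).
Irx2: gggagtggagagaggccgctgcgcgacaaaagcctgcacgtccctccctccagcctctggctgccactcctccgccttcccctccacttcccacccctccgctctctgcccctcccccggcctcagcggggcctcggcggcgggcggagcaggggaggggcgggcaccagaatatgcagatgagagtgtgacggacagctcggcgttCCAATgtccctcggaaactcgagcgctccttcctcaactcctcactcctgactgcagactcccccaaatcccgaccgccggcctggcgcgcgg
Pou3f4: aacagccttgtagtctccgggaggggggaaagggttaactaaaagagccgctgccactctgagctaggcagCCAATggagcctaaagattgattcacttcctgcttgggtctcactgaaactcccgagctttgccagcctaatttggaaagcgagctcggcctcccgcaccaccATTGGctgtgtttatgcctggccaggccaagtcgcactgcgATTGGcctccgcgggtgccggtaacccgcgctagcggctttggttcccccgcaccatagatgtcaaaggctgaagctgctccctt
Gc: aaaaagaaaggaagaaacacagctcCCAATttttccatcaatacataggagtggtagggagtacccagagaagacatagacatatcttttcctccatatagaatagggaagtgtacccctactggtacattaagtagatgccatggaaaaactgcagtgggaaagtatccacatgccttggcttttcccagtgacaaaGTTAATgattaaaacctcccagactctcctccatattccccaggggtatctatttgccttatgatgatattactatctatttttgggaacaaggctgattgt

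The Irx2 region held 25 CG dinucleotides and the Pou3f4 region 15, while the Gc region held 0, against a median of 7 over the 32851 start regions of the table. Pou3f4 carried CCAAT, the CCAAT box, at 3 places, and Irx2 and Gc carried it at 1 place each. Of all start regions, 37.4% hold it at 1 or more places. GTTAAT, a half-site of the hepatic factor HNF1, began at position −52 of Gc and was absent from the other 2, and 7.10% of all start regions hold it. Other words searched on both strands were TATAAA (a core promoter element, 13.6% of all start regions), TGTTTAC (forkhead factors, 3.65%), TAATTA (homeodomain factors, 5.29%), ATGCAAAT (octamer, 1.74%) and ACAGGAAGT (ETS factors, 1.03%), and no match to these lay in the 3 regions shown. A match is a run of letters and was not tested as a binding site.

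The deepest library, DMSO replicate 7, held 108865228 counts, and the 13 others held 26475749 to 36900026. Levels are given as CPM, counts relative to library totals scaled by trimmed means of M-values, and 3 counts equal 0.0290 to 0.113 CPM. Of the 9 genes, 8 passed the filter on low counts, and Mboat4 did not. RNA of mesenchyme was abundant. The 9 mesenchymal markers summed to 18637 to 35918 CPM with DMSO and to 18911 to 33594 CPM with adjudin. The sums were 537 to 2277 and 515 to 3861 CPM for 14 pan-endocrine genes, which include no hormone. For 10 beta cell markers, with Ins1 and Ins2 among them, they were 26.7 to 18003 and 1308 to 16577 CPM. Such sums do not measure shares of cells. DMSO replicate 5 stood apart from the other libraries, with Gcg, the glucagon gene, at 0.0924 CPM and Ins2 at 2.22 CPM, and Adjudin replicate 3 stood apart with Alb, the liver gene of serum albumin, at 297 CPM against at most 0.378 CPM in the 13 others. Because these are bulk samples, fewer cells of a type and less RNA per cell cannot be told apart.

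The genes lie on 8 chromosomes, and all 9 are protein-coding. Irx1 (ENSMUSG00000060969, chromosome 13, 71957921 to 71963723 in GRCm38/mm10, minus strand) and Irx2 (ENSMUSG00000001504, chromosome 13, 72628820 to 72634198, plus strand) are neighbours of the same Iroquois cluster with 665096 bases between them. Ttr (ENSMUSG00000061808) lies on chromosome 18 from 20665250 to 20674324, and Gc (ENSMUSG00000035540) on chromosome 5 from 89417522 to 89457898. Pou3f4 (ENSMUSG00000056854) is a gene of 1 exon on chromosome X, from 110814280 to 110817207. Hhex (ENSMUSG00000024986) lies on chromosome 19 from 37434810 to 37440731, Ghsr (ENSMUSG00000051136) on chromosome 3 from 27371351 to 27378010, Etv1 (ENSMUSG00000004151) on chromosome 12 from 38779380 to 38870484 and Mboat4 (ENSMUSG00000071113) on chromosome 8 from 34115030 to 34125182. The matrix assigns 5 of the 9 to a transcription factor family, and 3 of these (Irx1, Irx2 and Hhex) to the homeobox family. An antisense gene overlaps Ttr and another overlaps Mboat4, but they held 55 and 2 counts over all 14 libraries.

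**Figure D1:**
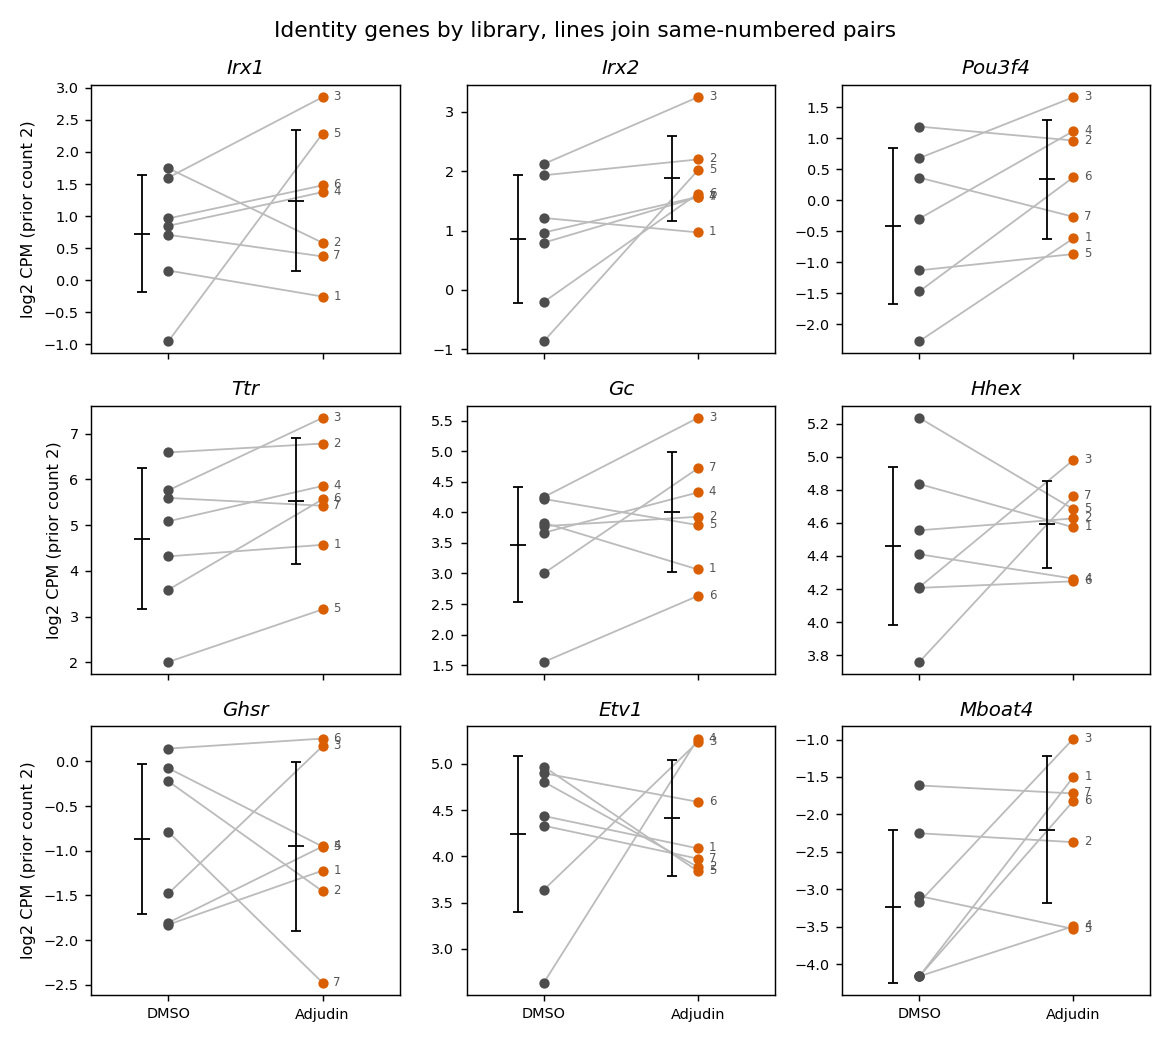
Level of each of the 9 genes in the 14 libraries, as log2 CPM with a prior count of 2, DMSO on the left and Adjudin on the right of each panel. Grey lines join libraries of the same replicate number, the numbers name the replicate, and black marks give the mean ± SD (n = 7). The groups overlap in all 9 panels, and Irx2 and Ttr are higher in Adjudin in 6 of 7 pairs.

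In the DMSO libraries the genes covered a wide range of levels per length (RPKM, the CPM divided by gene length in kilobases). Ttr was first with a median of 27.8 RPKM, followed by Hhex at 11.1, Gc at 7.38, Etv1 at 1.62, Irx1 at 0.666, Irx2 at 0.578, Pou3f4 at 0.259, Ghsr at 0.118 and Mboat4 at 0.0300 RPKM. Irx2 exceeded Pou3f4 in 7 of 7 DMSO libraries. All other neighbours in this order stood the other way round in 1 or 2 of the 7 DMSO libraries, and their difference was not tested. In Adjudin libraries Ttr exceeded Hhex in 6 of 7 and Gc exceeded Etv1 in 7 of 7. Irx1 exceeded Irx2 there in 3 of 7, and Hhex exceeded Gc in 4 of 7. The matrix gives Hhex a length of 1918 bases, whereas its exons in GENCODE M21 cover 5056 bases. With the latter the median of Hhex was 4.19 RPKM, which would put it below Gc.

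Levels also varied between libraries of the same treatment. Among DMSO libraries Ttr differed 24.3-fold between the lowest and the highest, Pou3f4 14.7-fold, Irx2 8.73-fold, Irx1 7.14-fold and Gc 6.59-fold, against 2.79-fold for Hhex, 4.64-fold for Ghsr and 5.08-fold for Etv1. The coefficient of variation among DMSO libraries was 82.1% for Ttr, 59.1% for Ghsr, 45.0% for Gc and 34.5% for Hhex, and the median over all tested genes with a mean of at least 1 CPM was 18.3%. All 8 tested genes were above that median. Counting error weighs most on the rarest of them, Ghsr and Pou3f4, each with as few as 4 counts in a library.

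For Adjudin against DMSO, 0 of the 8 tested genes passed an adjusted p of 0.05 with edgeR's quasi-likelihood test, where 1 of 18732 genes (0.00534%) did, and the groups overlapped for all 9 genes, as they did for all but 0.032% of those tested. At an unadjusted p under 0.05 there were 0 of 8 by edgeR, where 2.26% of all genes passed, and 1 of 8 (Irx2) by DESeq2, where 2.81% passed, and by limma-voom, where 2.55% did. DESeq2 also called 0 of 8 when adjusted, where 0.016% of all genes passed, and limma-voom called 0 of 8, where 0% did. The log2 fold changes leaned upward, with 7 of 8 above 0 and a median of 0.62, against 45.3% above 0 and a median of −0.01 over all genes tested. Without Adjudin replicate 3, the library with liver transcripts, 6 of 8 were above 0 with a median of 0.27, and without pair 3 it was 5 of 8 with a median of 0.41. With the replicate number as a block, the median of the 8 was 0.51 and that of all genes −0.01. Irx2 and Ttr then had an unadjusted p under 0.05 by edgeR, where 5.63% of all genes did, and 0 of 8 passed when adjusted, where 0% of all genes did. By limma-voom with the block Irx2, Ttr and Gc had one, where 6% of all genes did. DESeq2 with the block also called 0 of 8, where 0.561% of all genes passed, and had 4 (Irx2, Pou3f4, Ttr and Gc) at an unadjusted p under 0.05, where 6.5% of all genes did. None of the 9 genes was higher in all 7 pairs, as 0.945% of all genes were, but Irx2 and Ttr were higher in 6 of 7, and 6.23% of all genes were higher in at least 6.

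**Figure D2:**
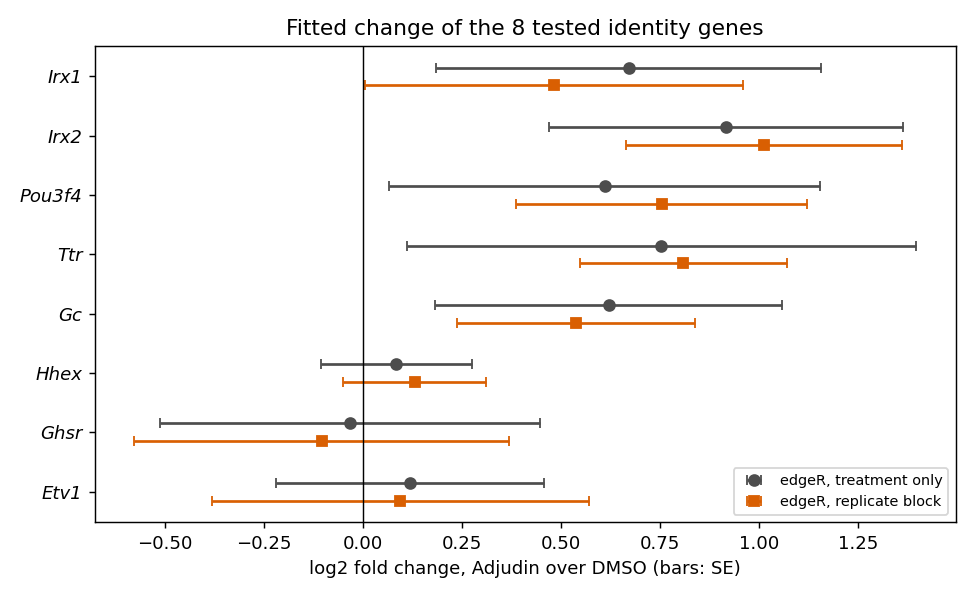
Fitted log2 fold change, Adjudin over DMSO, of the 8 tested genes by edgeR with treatment alone (circles) and with the replicate number as a block (squares), with bars of 1 SE. Irx1, Irx2, Pou3f4, Ttr and Gc lie at 0.48 or above in both fits, and Hhex, Ghsr and Etv1 lie between −0.10 and 0.13.

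Irx2 had the largest log2 fold change of the tested genes. Its level in DMSO libraries was lowest at 0.493, with a median of 1.90 and a highest value of 4.30 CPM. In Adjudin libraries the lowest was 1.90, the median 3.02 and the highest 9.46 CPM. The lowest Adjudin library lay near the DMSO median, and the 2 groups overlapped. Means were 2.17 ± 1.42 in DMSO and 4.10 ± 2.51 CPM with adjudin (SD, n = 7). Its log2 fold change was 0.92 ± 0.45 (SE, edgeR adjusted p = 1.00). With the block it was 1.01 ± 0.35, with an unadjusted p of 0.0165 and an adjusted p of 0.842 by edgeR, and DESeq2 with the block gave an adjusted p of 0.186. The largest differences came in pair 5, by 2.88, and pair 6, by 1.83 on the log2 scale, and pair 1 was the one pair in which it was lower, by −0.24. Without pair 5 the blocked log2 fold change was 0.74 ± 0.27.

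Its neighbour Irx1 did not follow it in every pair. In DMSO libraries Irx1 ranged from 0.462 over a median of 1.75 to 3.30 CPM, and in Adjudin libraries from 0.783 over 2.54 to 7.18 CPM. It was higher in 4 of 7 pairs and lower in pairs 1, 2 and 7, and in pair 2 it was lower by −1.16 on the log2 scale while Irx2 was higher by 0.27. The log2 fold change was 0.67 ± 0.49 (SE) by edgeR, and 0.48 ± 0.48 with the block. It rested in large part on pair 5, where the difference was 3.24, since without this pair the blocked value was 0.09 ± 0.32. Pou3f4 ranged from 0.151 over a median of 0.757 to 2.22 CPM in DMSO and from 0.491 over 1.24 to 3.11 CPM in Adjudin libraries. Of 7 pairs 5 were higher. Its log2 fold change was 0.61 ± 0.54, and 0.75 ± 0.37 with the block. All 3 factors had their highest level of all 14 libraries in Adjudin replicate 3.

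Ttr, the most abundant of the genes per length, was higher in 6 of 7 pairs. The lowest DMSO library had 3.97 CPM of Ttr, the median was 33.9 and the highest 96.4 CPM. With adjudin the lowest was 8.88, the median 47.3 and the highest 163 CPM. The ranges overlapped over most of their length. The log2 fold change was 0.75 ± 0.64 (SE) by edgeR and 0.81 ± 0.26 with the block. The blocked fit gave an unadjusted p of 0.0134 and an adjusted p of 0.794 by edgeR, and DESeq2 with the block gave an adjusted p of 0.0512. DMSO libraries with much Ttr were paired with Adjudin libraries with much Ttr, and the SE went from 0.64 to 0.26 with the block. Pair 7 was the one pair in which it was lower, by −0.17. Without DMSO replicate 5 the log2 fold change was 0.55 ± 0.59 for Ttr and 0.74 ± 0.41 for Irx2.

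Gc behaved differently from the other alpha cell genes in single libraries. It ranged from 2.88 over a median of 13.6 to 18.97 CPM in DMSO, and from 6.15 over 15.2 to 46.7 CPM in Adjudin libraries. The log2 fold change was 0.62 ± 0.44 (SE) by edgeR and 0.54 ± 0.30 with the block, and it was higher in 5 of 7 pairs. In DMSO replicate 5, where Gcg was at 0.0924 CPM, Gc stood at 18.6 CPM, close to its DMSO maximum, while Irx1, Irx2 and Ttr had their lowest values of all 14 libraries there. Its own lowest value was in DMSO replicate 6, where Gcg was at 179 CPM. Both Gc and Ttr had their highest value in Adjudin replicate 3, the library with Alb at 297 CPM, where 12 hepatocyte markers summed to 741 CPM against 6.67 to 18.9 CPM in the 13 others. Without this library the log2 fold change was 0.25 ± 0.40 for Gc and 0.34 ± 0.64 for Ttr, and it was also smaller for the factors, at 0.56 ± 0.42 for Irx2, 0.29 ± 0.45 for Irx1 and 0.31 ± 0.55 for Pou3f4. None of the 9 genes is on the hepatocyte list, so its sum leaves out Ttr and Gc, although the liver makes both in quantity. The part of liver RNA in these values was not tested. The pan-endocrine genes summed to 3861 CPM in the same library, the highest of all 14.

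**Figure D3:**
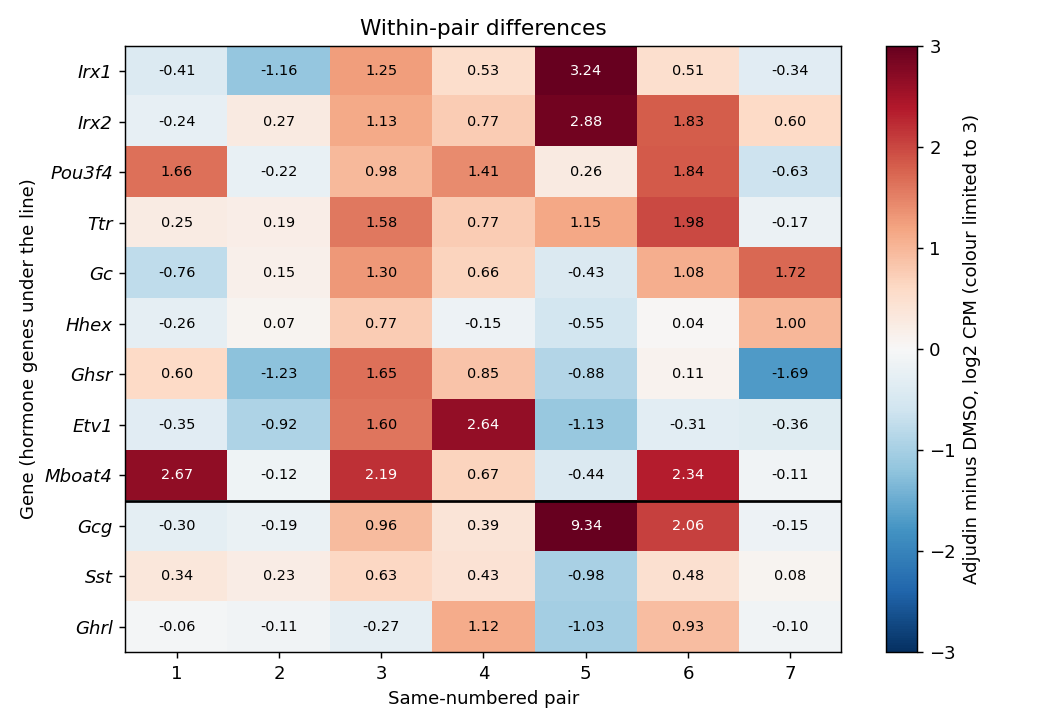
Difference in log2 CPM (prior count 2), Adjudin minus DMSO, for each gene (rows) in each of 7 pairs (columns), with the hormone genes Gcg, Sst and Ghrl under the line. Red is higher and blue lower in Adjudin, and the colour scale stops at 3. Pair 3 is positive for all 9 identity genes, and the Gcg value of pair 5 is 9.34.

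The delta cell genes had fitted changes smaller than their errors. Hhex ranged from 13.5 over a median of 21.2 to 37.6 CPM in DMSO libraries and from 18.9 over 24.7 to 31.5 CPM in Adjudin libraries. The Adjudin libraries lay inside the DMSO range. Of 7 pairs 4 were higher. The log2 fold change was 0.08 ± 0.19 (SE) by edgeR and 0.13 ± 0.18 with the block. The highest Hhex level was in DMSO replicate 5, at 37.6 CPM, in which the ductal markers (1855 CPM) and the endothelial markers (874 CPM) also had the highest sums of the DMSO libraries. Their part in the Hhex level was not tested. Ghsr, the ghrelin receptor, was rare, with 4 to 54 counts per library, from 0.226 over a median of 0.523 to 1.05 CPM in DMSO and from 0.124 over 0.461 to 1.14 CPM in Adjudin libraries. Its log2 fold change was −0.03 ± 0.48, with 4 pairs higher and 3 lower.

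Etv1 and Mboat4 are the genes linked to epsilon cells. Etv1 ranged from 6.16 over a median of 21.6 to 31.3 CPM in DMSO and from 14.3 over 16.9 to 38.6 CPM in Adjudin libraries. The log2 fold change was 0.12 ± 0.34 (SE) by edgeR, yet the gene was lower in 5 of 7 pairs, and the higher mean came from pairs 3 and 4, with differences of 1.60 and 2.64. In all other pairs the difference was between −1.13 and −0.31. Ghsr was likewise higher in pairs 3 and 4 and lower in pairs 2, 5 and 7, but it was higher in pairs 1 and 6, where Etv1 was lower. Mboat4 had 37 counts over all DMSO libraries, 28 of them in replicate 7, and 42 over all Adjudin libraries. It was at 0 in 3 DMSO libraries and above 3 counts in 7 of 14 libraries. The highest Mboat4 value was 0.271 CPM with DMSO and 0.449 CPM with adjudin, and a difference was not detectable at this depth. In a fit without the filter its log2 fold change was 1.24 ± 0.83, with an unadjusted p of 0.148 by edgeR, where 7.58% of 38028 genes had one under 0.05, and with the block, where 3.06% did, it was 1.62 ± 0.96.

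Whether each gene follows the hormone of its cell type was read from levels in the 14 libraries, as a description, since these come in 7 pairs that share a batch. Ttr followed Gcg closely, with Spearman's rho of 0.96 and Pearson's r of 0.85, or 0.96 without pair 5. Pou3f4 followed Gcg with rho of 0.92 and r of 0.56 (0.90 without pair 5), and Irx2 with rho of 0.69 and r of 0.75 (0.85). Irx1 followed it with rho of 0.53 and r of 0.62 (0.74), and Gc with rho of 0.33 and r of 0.06 (0.66). Ttr and Pou3f4 followed Sst, the somatostatin gene, nearly as closely, with rho of 0.94 and 0.90, and Gcg and Sst had rho of 0.96 with each other, so the data do not tie them to glucagon more than to somatostatin. Hhex did not follow Sst, with rho of −0.15 and r of −0.22 (0.17 without pair 5), and Ghsr had rho of 0.12 with Sst. In these libraries the levels of Hhex and Ghsr thus did not track the hormone of the cell type they are named for. Mboat4 and Ghrl, the ghrelin gene, had rho of 0.47, and Etv1 and Ghrl had rho of 0.20.

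**Figure D4:**
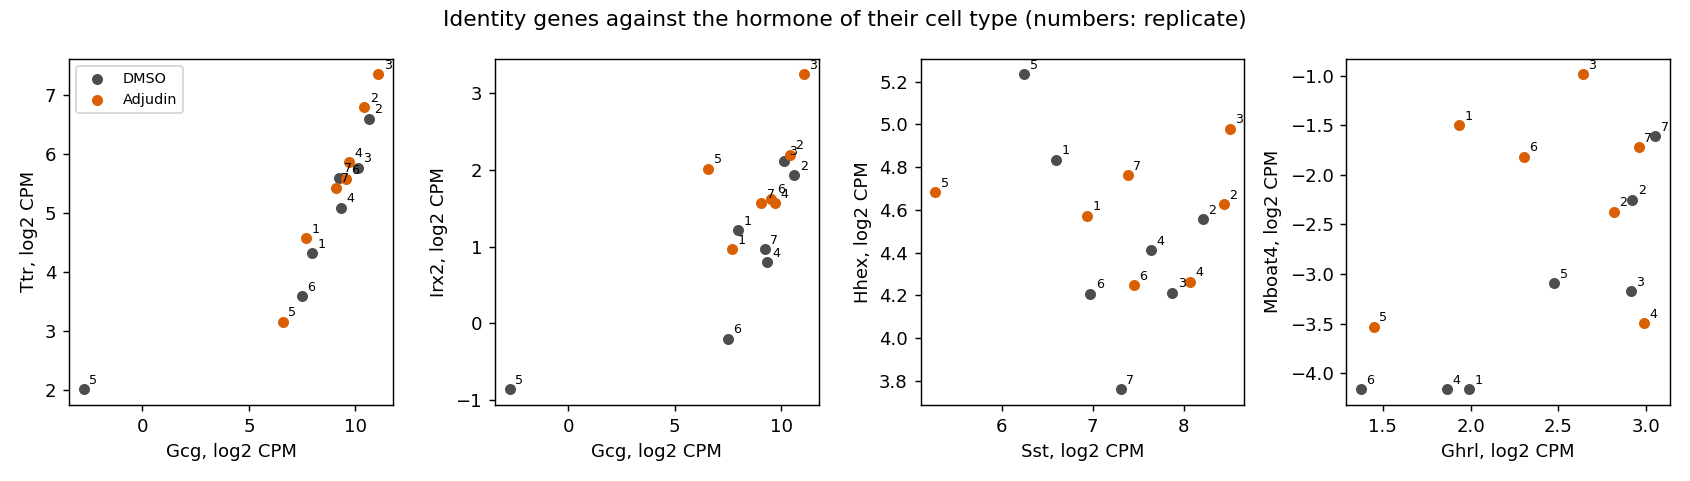
Log2 CPM (prior count 2) of Ttr and Irx2 against Gcg, of Hhex against Sst and of Mboat4 against Ghrl, 1 point per library, DMSO in dark grey and Adjudin in orange, numbered by replicate. Ttr rises with Gcg (Spearman's rho of 0.96), and Hhex does not rise with Sst (rho of −0.15). DMSO replicate 5 lies far to the left in both Gcg panels, at 0.0924 CPM.

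In pair 5 Gcg differed more than any of the identity genes, and these differed in both directions. Lower with adjudin there were Gc by −0.43, Hhex by −0.55, Ghsr by −0.88, Etv1 by −1.13 and Mboat4 by −0.44. The hormone genes Sst and Ghrl were also lower in this pair, by −0.98 and −1.03. Gcg went from 0.0924 CPM in the DMSO to 96.3 CPM in the Adjudin library, a difference of 9.34 on the log2 scale, while the differences in the same pair were 3.24 for Irx1, 2.88 for Irx2, 1.15 for Ttr and 0.26 for Pou3f4. Irx1, Irx2 and Pou3f4 were thus detected in the library with 3 counts of glucagon RNA. Sst stood at 75.9 CPM in DMSO replicate 5 and 38.5 CPM in Adjudin replicate 5, against 96.9 CPM or more in all other libraries. Over all libraries the log2 fold change was 0.45 ± 0.94 (SE) for Gcg, 0.32 ± 0.41 for Sst and 0.04 ± 0.29 for Ghrl by edgeR, and none of these had an unadjusted p under 0.05, also with the block. Sst was higher in 6 of 7 pairs, and its blocked log2 fold change over all pairs was 0.18 ± 0.17 (edgeR unadjusted p = 0.305). Leaving out pair 5, chosen after seeing the data, removes the only pair in which Sst was lower. The blocked value was then 0.37 ± 0.07, with an unadjusted p of 0.000791 and an adjusted p of 0.325 by edgeR. In that fit 6.63% of all genes had an unadjusted p under 0.05.

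Genes of most similar profile were named by Pearson's r of log2 CPM over the 14 libraries among 15839 tested genes with a mean of at least 0. For Ttr they were Ociad2 (r = 0.98), the pseudogene 1700086L19Rik (0.98) and Gstz1, an enzyme of tyrosine breakdown (0.98), which kept r of 0.96, 0.95 and 0.96 without the 2 libraries farthest from the median of Ttr. For Pou3f4 they were Prlr, the prolactin receptor (0.94), Ush1c, a scaffold protein (0.92), and Rph3al, a protein of regulated exocytosis (0.92). For Etv1 they were Grik3, a kainate receptor (0.95), Ret, the receptor for GDNF ligands (0.94), and Rspo2, a Wnt-enhancing secreted protein (0.93). The first genes for the others were Ubxn10 for Irx1 (0.84), Upb1 for Irx2 (0.90), Tmem106c for Gc (0.89), Apobr for Hhex (0.92) and Samd8 for Ghsr (0.84). Without the 2 farthest libraries Upb1 had r of 0.77 with Irx2 and ranked 323, and Tmem106c had r of 0.69 with Gc and ranked 89. Ubxn10 then ranked 56 for Irx1 (0.80), Samd8 45 for Ghsr (0.77) and Apobr 13 for Hhex (0.81). Prlr ranked 15 for Pou3f4 (0.88) and Grik3 2 for Etv1 (0.91). Among the genes themselves, Pou3f4 and Ttr had the highest rho at 0.94, Irx2 and Ttr had 0.68, Ghsr and Etv1 0.68, and Irx1 and Irx2 0.63.

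Other genes of these cell types and pathways were taken from a list of 46, of which 36 were tested. By edgeR the log2 fold change was above 0 for 27, with a median of 0.32 over the 36. Over all genes tested 45.3% were above 0, with a median of −0.01. An adjusted p of 0.05 was passed by 0, and by 0.00534% of all genes. At an unadjusted p under 0.05, 2 were higher and 0 lower, where 2.26% of all genes had one. The 2 were Etv4 and the liver gene Afp, whose Adjudin median was 0.559 and maximum 135 CPM. With the block 0 passed when adjusted, 10 were higher and 1 lower at an unadjusted p under 0.05, where 5.63% of all genes had one, and 6 were higher in 7 of 7 pairs, as 0.945% of all genes were. DESeq2 with the block called 5, all higher, where it called 0.561% of all genes. Of the 15 transcription factors of endocrine lineages 13 were tested, and Rfx6, a regulator of endocrine differentiation, Nkx2-2, a homeobox factor of several islet cell types, and Pax6, a paired-box factor of all islet endocrine cells, were called by DESeq2 with the block (adjusted p 0.0135, 0.00935 and 0.0184).

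Rbp4, the retinol-binding protein that travels with transthyretin and is a marker of delta cells, was higher in 7 of 7 pairs. Means were 46.5 ± 30.6 CPM with DMSO and 74.4 ± 49.8 CPM with adjudin (SD, n = 7), and DESeq2 with the block called it (adjusted p 7.58e-05) while edgeR with the block did not (adjusted p 0.387). Pcsk1, the protease that also cuts proghrelin, was the other called gene of the list. Of the ghrelin and hormone receptor genes, Gcgr, the glucagon receptor, had 8.25 ± 4.92 and 10.3 ± 6.28 CPM, and Sstr1, Sstr2 and Sstr3, receptors for somatostatin, had log2 fold changes of 0.07 to 0.42 with no unadjusted p under 0.05 by edgeR. Among paralogues, Irx3 stood at 6.33 ± 2.81 and 7.65 ± 3.73 CPM and Irx5 at 0.368 ± 0.261 and 0.632 ± 0.411 CPM, and Irx4 had no count in the 14 libraries. Etv4, an ETS factor of the same subfamily as Etv1, had 15.6 ± 1.83 and 18.6 ± 1.64 CPM with a log2 fold change of 0.25 ± 0.09 and an unadjusted p of 0.0144 by edgeR. In the same libraries the pan-endocrine score was higher in 6 of 7 pairs by a mean of 0.48 on the log2 scale, the acinar score in 6 of 7 by 2.51 and the ductal score in 5 of 7 by 0.60, and their part in these values was not tested. The score of 13 alpha cell markers was higher in 4 of 7 pairs by a mean of 0.13 and that of 10 delta cell markers in 3 of 7 by 0.17. The score of 5 tested epsilon cell markers was higher in 6 of 7 by 0.68. Mean differences were 1.59 for Anxa13 and 1.33 for Phgr1, higher in 6 and 5 of 7 pairs. Ghrl was higher in 2 of 7 (mean 0.07), Acsl1 in 3 of 7 (−0.07) and Spink4 in 3 of 7 (0.46). The score of 10 beta cell markers was higher in 6 of 7 by 0.84, and the difference was 3.28 in pair 5. Of these 10 markers, 8 had a log2 fold change above 0 by edgeR, but it was −0.03 for Ins1 and −0.13 for Ins2.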

How the data were processed

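RNA-seq of 14 islet libraries (7 DMSO, 7 Adjudin) was analysed. The authors deposited raw counts per gene. Their methods and processing notes name HISAT2 2.0.5, GRCm38/mm10 and featureCounts 1.5.0-p3. The annotation release, strand setting and handling of multi-mapping reads were not given in the sources used here. Totals ran from 26475749 to 108865228 counts, and counting error limits precision for rare genes.

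The filter was filterByExpr (minimum count 10), which kept 18732 of 54532 genes. After TMM scaling, edgeR 4.0.16 (R 4.3.3) fitted treatment alone with its robust quasi-likelihood test, and p-values were adjusted by Benjamini and Hochberg's method across these genes. Each SE was derived from the fitted change and F. Log2 CPM had a prior count of 2, and a list score is the mean log2 CPM of its tested markers. DESeq2 1.42.0 and limma-voom (limma 3.58.1) with and without the replicate block, other scalings, no filter, and leaving out libraries or pairs served as alternatives. Scripts were checked on simulated counts.

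Equal numbers share a batch label and so pair the libraries. Their deviations from group means had r of −0.14 to 0.45 (mean 0.25), against −0.04 on average for unequal numbers. The paper describes 7 biological replicates per group, each from the islets of several pups. It does not say whether libraries of the same number shared a pool, and p-values measure the spread between these samples.

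The 9 genes and all lists were chosen with earlier results of these data known. The genes named were the 9, genes of the pathway and marker lists, the hormones, and, for each of the 9 with at least 10 counts in 7 or more libraries, the 3 genes of highest Pearson r.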

Additional observations from a re-analysis of the deposited data

How the results depend on the processing

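No setting brought any of the 9 genes past an adjusted p of 0.05, and the lowest was 0.0512 (Ttr, DESeq2 with the block). Over 37 alternatives the log2 fold changes of Irx1, Irx2, Pou3f4, Ttr and Gc stayed above 0, within 0.09 to 0.99, 0.56 to 1.22, 0.31 to 1.02, 0.34 to 1.17 and 0.25 to 0.80. Hhex turned below 0 in 4, Ghsr above 0 in 14 and Etv1 below 0 in 7, all with libraries or pairs left out. Without single libraries the ranges were −0.0019 to 0.25 for Hhex, −0.30 to 0.17 for Ghsr and −0.05 to 0.24 for Etv1. Without single pairs they were −0.030 to 0.23, −0.36 to 0.17 and −0.20 to 0.33, and with the replicate block as well −0.0062 to 0.25, −0.42 to 0.19 and −0.26 to 0.33. Reversed blocked values were also −0.16 for Etv1 without pair 3, and 0.12 and 0.065 for Ghsr without pairs 2 and 5.

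Genes past an adjusted p of 0.05 numbered 0 with the replicate block by edgeR, with or without the filter, 3 by DESeq2, 105 by DESeq2 with the block, 0 by limma-voom with or without it, and 0 to 1 with libraries or pairs left out. Of the 9 genes, 2 had an unadjusted p under 0.05 with the block by edgeR, 3 with the block and no filter, 1 by DESeq2, 4 by DESeq2 with the block, 1 by limma-voom and 3 by limma-voom with the block. The number was 0 to 1 with libraries or pairs left out, where 1.65% to 3.40% of all genes had such a p. It was 2 to 3 with pairs left out of the blocked fit, where 4.27% to 6.71% did, with Irx2 and Ttr in each. Of the pathway list genes, it was 11 with the block (5.63% of all genes), 12 with the block and no filter (3.06%) and 13 by DESeq2 with the block (6.5%). It was 1 by limma-voom (2.55%) and 11 by limma-voom with the block (6%). With libraries or pairs left out it was 1 to 4 (1.65% to 3.40%), and with pairs left out of the blocked fit 10 to 13 (4.27% to 6.71%). The filter kept 36 of the 46 listed genes, and the fit without it was not limited to those. Blocked fits without a pair or without the filter were chosen after seeing the data. Of the 9 genes, 0 to 1 were higher in every pair when a pair was left out, namely Irx2 without pair 1 and Ttr without pair 7. The share of all genes under this weaker rule was not computed, and 6.23% were higher in at least 6 of 7 pairs. Depth limits Mboat4, Ghsr and Pou3f4 most.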
